A study of Mus musculus with 90 samples.

Results

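The 8 genes described here, S100a8, S100a9, Retnlg, Csf3r, Ngp, Camp, Il1b and Mpo, are genes of neutrophils, chosen by their Entrez gene identifiers among the 20414 genes of the deposited table, and all 8 were found there. Their expression was measured by RNA-sequencing in 15 tissues of female C57BL/6 mice (C57BL/6J in the study's methods), labelled as 10 weeks old (the methods give a younger age), with 3 libraries of estrus and 3 of diestrus in every tissue, 90 libraries in all. The phase was read from stained vaginal secretions followed daily, and the study also measured serum estrogen and progesterone as an aid. The mice of both groups were untreated. The tissues were aorta, vein, brown adipose tissue (BAT), white adipose tissue (WAT), spleen, uterus (labelled womb), ovary, cerebrum, hypothalamus, duodenum, stomach, liver, heart, skeletal muscle and kidney. The question asked of each tissue was whether these genes were at different levels in estrus and in diestrus. Values are FPKM, fragments counted per length of transcript and scaled to the size of the library, so levels of different genes can be set side by side. Each library is a whole piece of tissue, in which fewer neutrophils and less RNA per neutrophil cannot be told apart.

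Neutrophils are made in bone marrow and, in mice, also in the spleen. Their precursors, the promyelocytes, make the proteins of the azurophil granules, among them myeloperoxidase (Mpo). Later precursors make those of the specific granules, among them the neutrophilic granule protein (Ngp) and the antimicrobial peptide cathelicidin (Camp). Mature cells carry the receptor for granulocyte colony-stimulating factor (Csf3r), the resistin-like protein Retnlg, and large amounts of S100a8 and S100a9, which pair to form the metal-binding protein calprotectin. Il1b, the inflammatory cytokine interleukin 1 beta, is made by neutrophils and also by monocytes and macrophages. In the cycle of rodents, neutrophils enter the genital tract after ovulation and are found in the vaginal lumen. S100a8 and S100a9 can also be made by stratified squamous epithelium, which lines the vagina and the forestomach.

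Before the values, 4 libraries that stood apart have to be named. The library of BAT estrus replicate 3 had an approximate depth, in units of 1e6 reads, of 0.0695 as read from the smallest steps between the values of short genes, against 8.44 to 17.0 in the other 89 libraries, and listed 12048 genes at 0 against 2404 to 4820. Uterus estrus replicate 3 had a summed FPKM of 4672 over 14 markers of squamous epithelium, where the other uterus libraries had 9.91 to 169. It also had the lowest sum of 5 uterus identity genes, at 124 FPKM against 158 to 841 FPKM. Vein estrus replicate 3 had a summed FPKM of 208 over 6 B cell markers, where the other vein libraries had 4.06 to 6.78. WAT estrus replicate 3 had a summed FPKM of 14380 over 7 erythroid markers, against 841 to 2949 in the other WAT libraries. Results that rest on these 4 libraries are given below with and without them. They were not the only ones apart in such sums. Duodenum estrus replicate 1 had 531 FPKM of B cell markers against 23.3 to 99.3 FPKM in the other duodenum libraries. It was not among the 4 left out of the order of tissues, and neither were stomach and aorta libraries described below.

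The spleen had the highest mean level of all 8 genes among the 15 tissues. Averaged over its 6 libraries, S100a9 was at 182 ± 159 FPKM, Ngp at 125 ± 132, S100a8 at 106 ± 88.0, Camp at 66.0 ± 54.3, Csf3r at 17.5 ± 6.36, Mpo at 12.0 ± 12.5, Il1b at 7.99 ± 3.49 and Retnlg at 6.08 ± 4.62 (SD, n = 6). For S100a8, Ngp and Camp every spleen library was above every library of the other tissues. The lowest spleen value of S100a8 was 41.8 FPKM, and the highest elsewhere was 21.2 FPKM, in uterus estrus replicate 3. For Ngp these values were 39.6 FPKM and 6.66 FPKM, and for Camp 24.8 FPKM and 2.79 FPKM, both of the latter in WAT estrus replicate 3. The other 5 genes overlapped between the spleen and at least 1 library of another tissue.

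**Figure D1:**
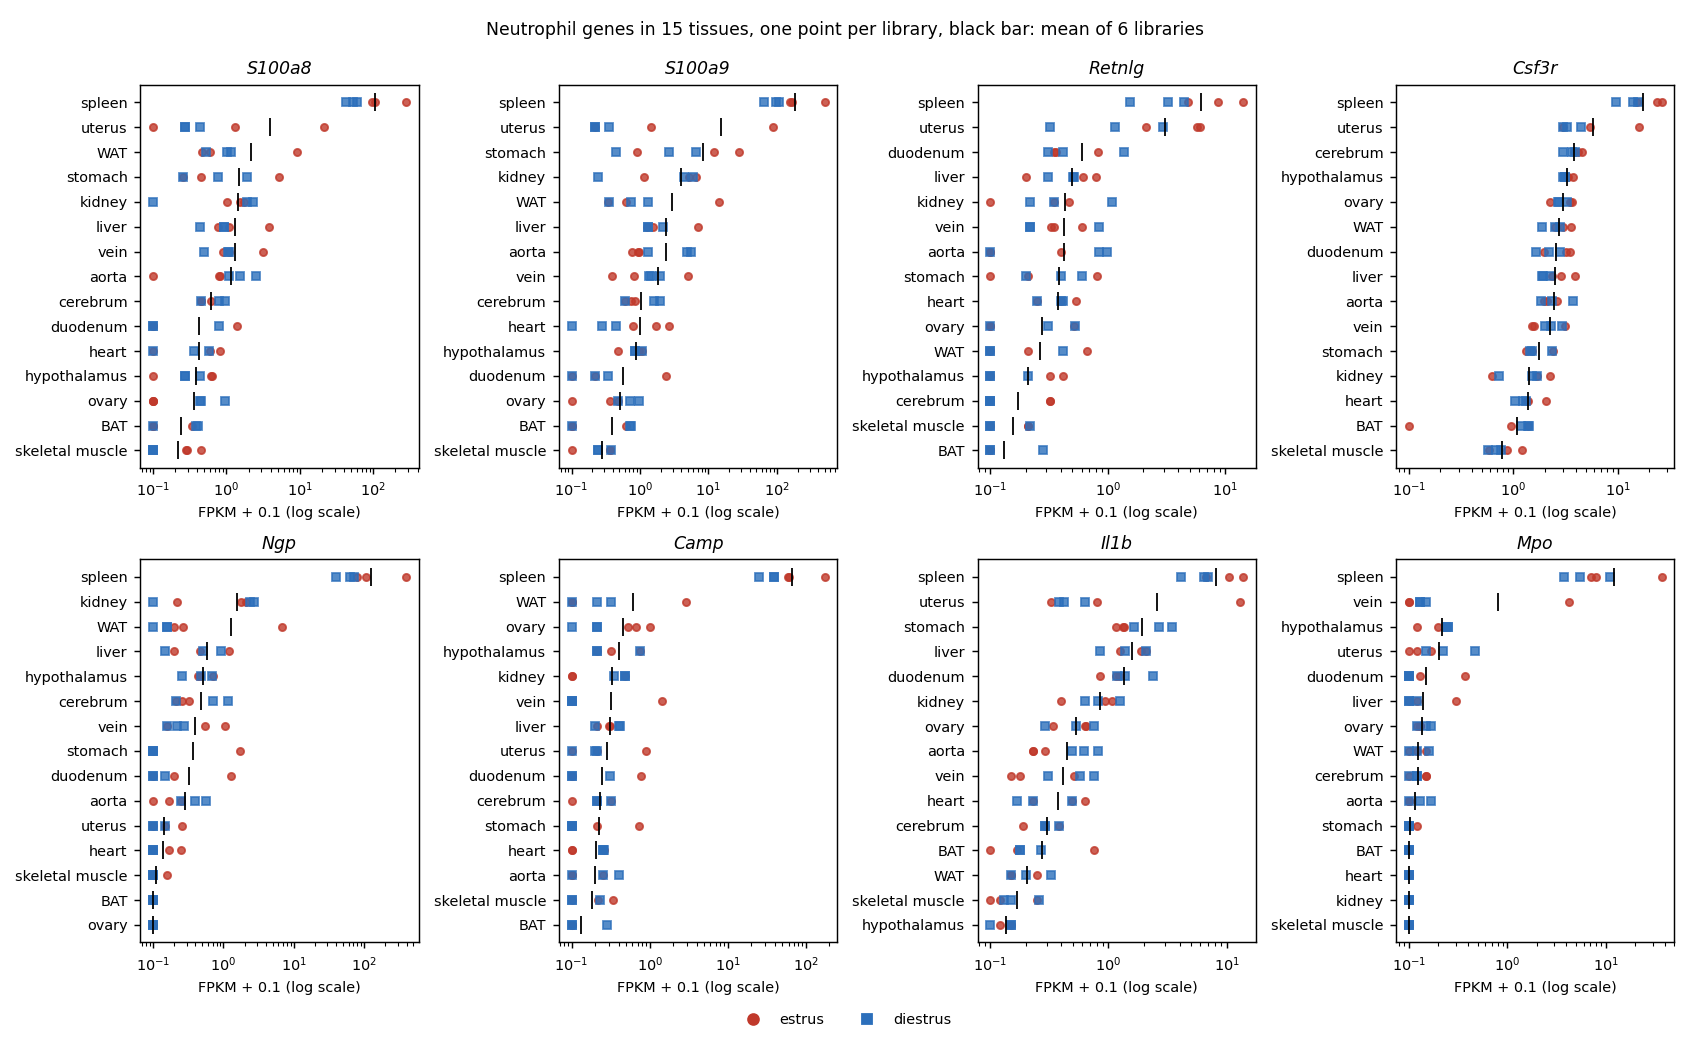
FPKM + 0.1 on a log axis for each of the 8 genes in the 15 tissues, ordered by mean, with a point for each library of estrus or diestrus and a black bar for the mean of 6 libraries. The spleen is at the top in every panel, and Csf3r has values of at least 1 FPKM in most tissues while Camp and Mpo are near 0 outside the spleen.

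The genes differed in how far they extended beyond the spleen. Csf3r reached a mean of at least 1 FPKM in 13 tissues, S100a8 and S100a9 in 8 each, Il1b in 5, Ngp in 3, Retnlg in 2, and Camp and Mpo in 1, which was the spleen. Of the 84 libraries of other tissues, 74 had at least 1 FPKM of Csf3r, 31 of S100a9, 18 of Il1b, 17 of S100a8, 9 of Ngp, 7 of Retnlg, 2 of Camp and 1 of Mpo. Mpo was listed at 0 in 47 of the 90 libraries and Csf3r in 1, that of BAT estrus replicate 3. Camp and Mpo were thus nearly restricted to the spleen, and the receptor gene was found at low levels nearly everywhere. The cells that made Csf3r in these tissues were not identified.

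The tissue second in the order by mean was the uterus for S100a8, S100a9, Retnlg, Csf3r and Il1b. It was the kidney for Ngp, WAT for Camp and the vein for Mpo. Several of these means lay far above the median of the same 6 libraries: uterus S100a9 averaged 15.1 ± 36.0 FPKM with a median of 0.185 FPKM, uterus S100a8 averaged 3.85 ± 8.52 FPKM with a median of 0.255 FPKM, and vein Mpo averaged 0.708 ± 1.68 FPKM with a median of 0.03 FPKM (SD, n = 6). In a two-sided exact permutation test of 6 libraries against 6 on log2(FPKM + 1), the spleen differed from the second tissue with p = 0.00216, the smallest that this test can give, for S100a8, Ngp and Camp. After Benjamini-Hochberg adjustment over all pairs of neighbouring tissues these p were 0.0808, and no pair of any gene passed 0.05. With 3 pairs at the smallest possible p, 0.0808 was the lowest value that the adjustment could give, so it cannot separate even tissues without overlap. For S100a9 and Mpo the spleen and the second tissue had p = 0.00433 in the exact permutation test, for Csf3r 0.0108, for Il1b 0.0130 and for Retnlg 0.158. Without the 4 libraries named above, an alternative added after the values were seen, the spleen was still first for all 8 genes. It differed from the next tissue for every gene but Retnlg (exact permutation test, p = 0.00216, adjusted p = 0.0346). Those libraries included the highest one outside the spleen for every gene but Retnlg, so this separation follows in part from leaving them out. The second tissue was then the stomach for S100a8 (1.36 ± 1.91 FPKM), S100a9 (8.28 ± 10.4 FPKM) and Il1b (1.84 ± 0.92 FPKM), the cerebrum for Csf3r, the ovary for Camp and the hypothalamus for Mpo (SD, n = 6), while it remained the uterus for Retnlg and the kidney for Ngp. Ordered by medians of all libraries, the spleen differed from the next tissue for every gene but Retnlg and Csf3r (exact permutation test, adjusted p = 0.0404). The cerebrum (2.91 to 4.42 FPKM) and the hypothalamus (2.88 to 3.66 FPKM) came next after the uterus for Csf3r with little spread, and compared with each other they had p = 0.0433 in the exact permutation test and an adjusted p of 0.485.

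The ratio of S100a8 to S100a9, the subunits of calprotectin, was steady in the spleen, between 0.549 and 0.646 in its 6 libraries, with a median of 0.588. Over the 37 libraries of all tissues with at least 1 FPKM of S100a9 it ranged from 0.0294 to 0.890, with a median of 0.536. The lowest ratio was in the stomach, whose 4 libraries ran from 0.0294 to 0.275, and uterus estrus replicate 3 had 0.239. Cerebrum diestrus replicate 3 (0.189), kidney estrus replicate 1 (0.223) and aorta diestrus replicate 1 (0.262) also lay in the range of the stomach. The ratio of Ngp plus Camp to S100a8 plus S100a9 sets genes of precursors against genes of mature cells. It lay between 0.507 and 0.731 in the 6 spleen libraries. In the 15 other libraries in which it could be formed it was 0.522 or lower, down to 0 in a stomach library and 0.00874 in uterus estrus replicate 3. In 2 aorta libraries it was 0.0649 and 0.108, and in 2 liver libraries 0.0864 and 0.123. In 4 kidney libraries it was 0.260 to 0.462, and in WAT estrus replicate 3 it was 0.409. These ratios are descriptions with no test, and those from values near 1 FPKM carry a large counting error.

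**Figure D2:**
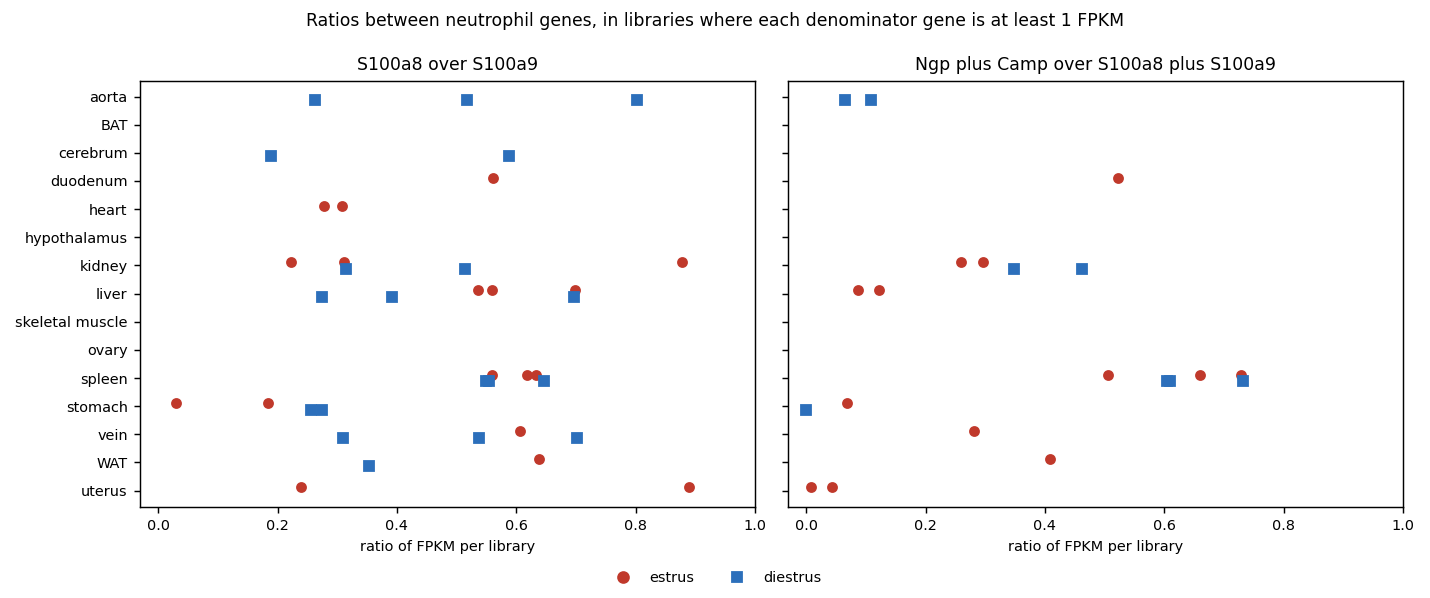
Ratio of S100a8 to S100a9 (left) and of Ngp plus Camp to S100a8 plus S100a9 (right), one point for each library in which each denominator gene is at least 1 FPKM, by tissue and phase. The spleen libraries lie together at 0.549 to 0.646 on the left and at 0.507 to 0.731 on the right. The uterus, stomach, aorta and liver libraries are at 0.123 or lower on the right.

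Which other genes had a tissue pattern most like each of the 8 was read from the correlation over the 15 tissue means of log2(FPKM + 1), among 17209 genes. The points include the spleen, which was highest for all 8 genes, so these are descriptions that rest largely on that tissue. Mpo was most like Ctsg (Pearson r = 0.999), the gene of the azurophil granule protease cathepsin G, followed by Lcn4 (r = 0.990) and Apol11b (r = 0.987). Camp was most like Fcnb (r = 0.997), the gene of the neutrophil lectin ficolin B, then Bex6 and Btnl10 (both r = 0.996). Ngp was most like Camp (r = 0.983), Fcnb (r = 0.982) and Bex6 (r = 0.979). S100a9 was most like S100a8 (r = 0.959), then Gm33887 (r = 0.943) and Sirpb1c (r = 0.915). S100a8 itself was most like Sirpb1a (r = 0.977), Klri2 (r = 0.970) and Klra10 (r = 0.970). For Retnlg the genes were Klra4 (r = 0.975), Stfa2l1 (r = 0.973) and Ccr4 (r = 0.967). For Csf3r they were Ly86 (r = 0.959), Limd2 (r = 0.944) and Lair1 (r = 0.938), and for Il1b Cd300lf (r = 0.942), Mctp2 (r = 0.928) and Batf (r = 0.915). Over the 90 single libraries, only 5 of these 24 genes were again among the 3 most like. Among the members themselves, the 28 pairs had r between 0.683 and 0.970 over the 90 libraries.

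Since these genes were high together in the spleen, the 250 bases before the transcription start of each, from RefSeq's promoter table (build GRCm38.p6, given for all 8 genes), were searched for 3 motifs on both strands. The motifs were TTGCNNAA for C/EBP factors and GAGGAA for PU.1, which are known to drive genes of the granulocyte lineage, and the palindromic estrogen response element. The promoters of 4 genes are shown because they stand for the calprotectin pair, the specific granules and the azurophil granules, in lower case with motif matches in capitals. They lie at chr3:90668821-90669070 (plus strand) for S100a8, chr3:90695722-90695971 (minus strand) for S100a9, chr9:110419558-110419807 (plus strand) for Ngp and chr11:87793534-87793783 (plus strand) for Mpo.
S100a8: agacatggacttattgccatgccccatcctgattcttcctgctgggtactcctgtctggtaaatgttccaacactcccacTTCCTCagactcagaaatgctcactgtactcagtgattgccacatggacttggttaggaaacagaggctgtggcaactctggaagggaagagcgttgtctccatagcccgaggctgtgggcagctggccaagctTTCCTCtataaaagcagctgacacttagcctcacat
S100a9: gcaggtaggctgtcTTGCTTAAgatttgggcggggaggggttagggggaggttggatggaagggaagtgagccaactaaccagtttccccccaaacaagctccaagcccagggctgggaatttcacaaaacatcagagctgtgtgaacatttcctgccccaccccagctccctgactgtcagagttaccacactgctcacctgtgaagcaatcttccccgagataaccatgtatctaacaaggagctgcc
Ngp: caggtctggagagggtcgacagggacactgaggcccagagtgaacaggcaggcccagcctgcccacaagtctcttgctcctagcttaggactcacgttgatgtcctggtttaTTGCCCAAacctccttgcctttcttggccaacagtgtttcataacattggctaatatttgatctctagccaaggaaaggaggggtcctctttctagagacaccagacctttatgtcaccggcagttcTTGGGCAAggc
Mpo: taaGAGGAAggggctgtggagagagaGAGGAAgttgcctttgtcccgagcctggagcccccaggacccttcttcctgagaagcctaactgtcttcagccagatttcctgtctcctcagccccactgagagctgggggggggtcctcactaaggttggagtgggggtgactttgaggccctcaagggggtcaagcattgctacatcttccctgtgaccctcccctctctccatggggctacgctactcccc
The S100a8 promoter held GAGGAA on the reverse strand at 2 places, positions -170 to -165 and -36 to -31, counted back from the start. The Mpo promoter held it on the forward strand at -247 to -242 and -224 to -219. TTGCNNAA was in the S100a9 promoter once, at -236 to -229, and in the Ngp promoter at 2 places, -138 to -131 and -11 to -4. Retnlg held 1 match to TTGCNNAA and Csf3r 1 match to GAGGAA, whereas Camp and Il1b held none of the 3 motifs. The Csf3r window lies inside the span RefSeq gives the gene, and the Il1b window lies partly inside that of Il1b. In all, TTGCNNAA was in 3 of the 8 promoters and in 9.55% of all 27025 promoters of the table, GAGGAA in 3 of 8 and in 23.1%, and the estrogen response element in 0 of 8 and in 0.0629%. These matches are letters in a window and not measured sites.

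Estrus and diestrus were compared within each tissue with limma on log2(FPKM + 1), and genes whose 6 libraries averaged under 1 FPKM were not tested. Called means an adjusted p no higher than 0.05 together with a log2 fold change of 1 or more, up or down. Of the 120 pairs of a gene and a tissue, 41 passed this filter, in 13 tissues. None of the 41 was called, and the lowest adjusted p was 0.519. In these 13 tissues 0% of all tested genes were called in either direction, except in the spleen, as given below. Without adjustment, 12 of the 41 had p under 0.05, of which 7 were in the spleen and 5 in the other tissues. All fold changes are differences of log2(FPKM + 1), which makes those of genes near 1 FPKM or below too small.

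The spleen had the most uniform difference: all 8 genes had higher mean levels in estrus than in diestrus. Their log2 fold changes ran from 0.70 to 1.46 with a median of 1.31, beside a median of -0.01 over all 12536 genes tested in the spleen. Of the 8 genes, 7 had an unadjusted p under 0.05 with higher values in estrus, where 1.82% of all tested genes did (and 1.69% with lower values). For 5 of the 8, all estrus libraries were above all diestrus libraries, where 3.09% of all tested genes were. None passed the adjustment (limma, adjusted p = 0.930 for all 8), and 0.00798% of the tested genes were called higher in estrus.

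**Figure D3:**
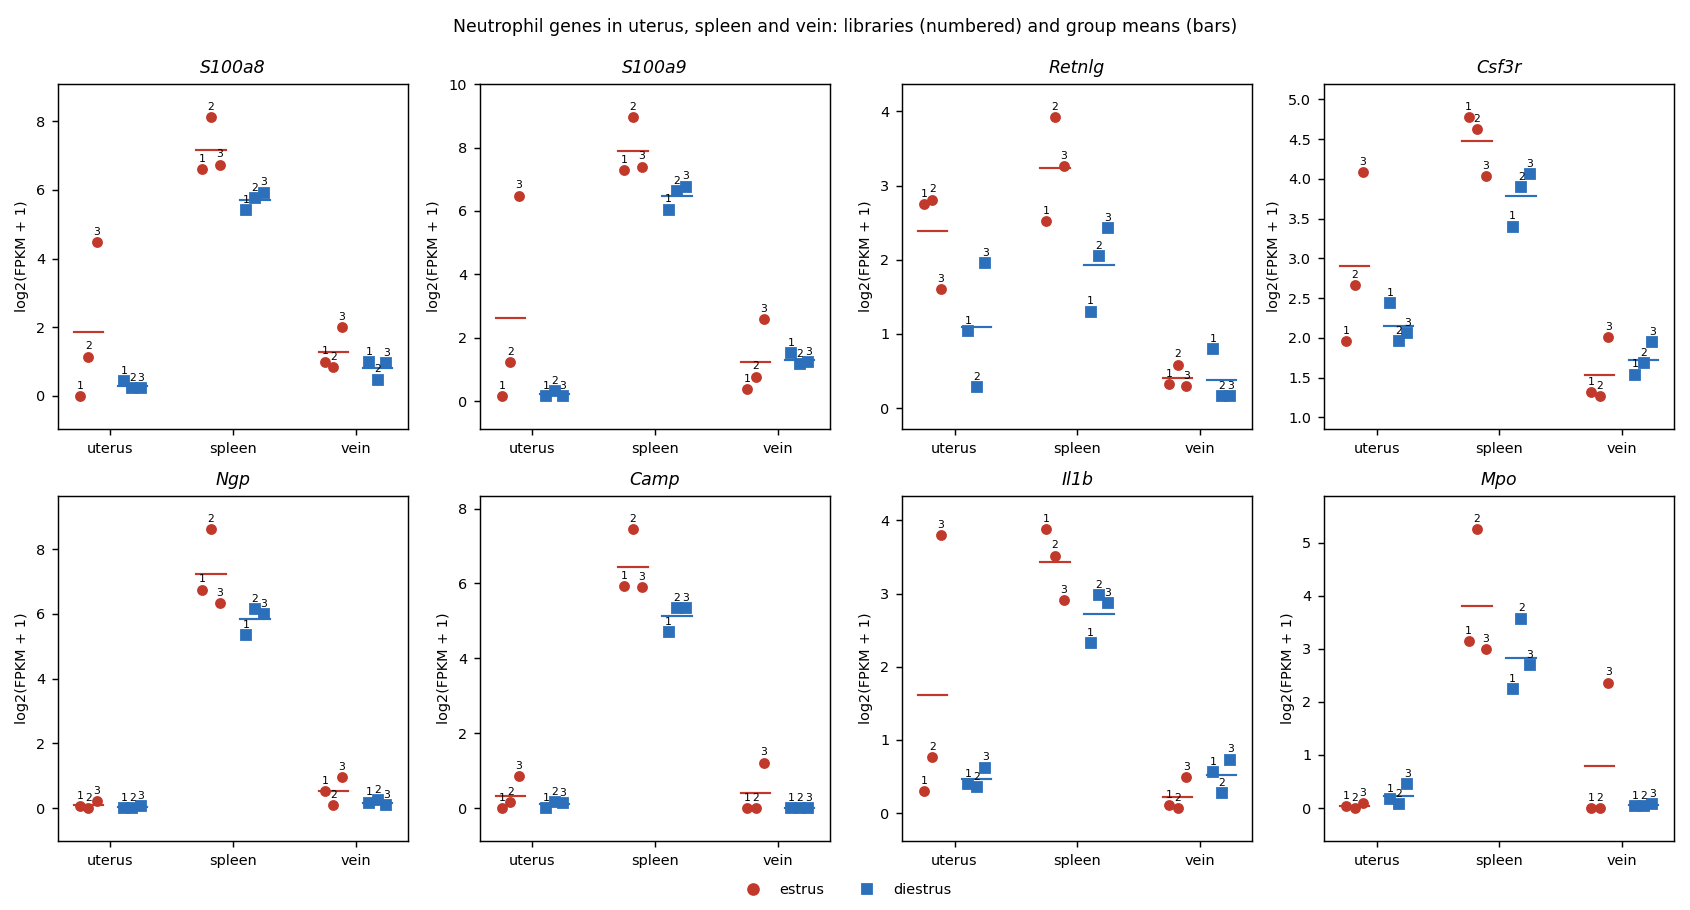
log2(FPKM + 1) of the 8 genes in uterus, spleen and vein, one numbered point for each library and a bar for the mean of each phase. In the spleen the estrus points lie above the diestrus points for 5 genes with replicate 2 mostly on top, and in uterus and vein estrus replicate 3 stands apart for several genes.

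S100a8 was at 96.4, 278 and 106 FPKM in the estrus spleens and at 41.8, 53.2 and 59.8 FPKM in the diestrus spleens. The phases did not overlap, and estrus replicate 2 was far above the other estrus libraries. The log2 fold change was 1.46 ± 0.38 (SE, limma, unadjusted p = 0.00569). S100a9 was at 156, 497 and 167 FPKM in estrus and at 64.7, 96.9 and 108 FPKM in diestrus, with the same order of libraries in estrus, and its log2 fold change was 1.41 ± 0.43 (SE, limma, unadjusted p = 0.0129).

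The specific granule genes were also highest in estrus replicate 2. Ngp was at 106, 391 and 80.0 FPKM in estrus and at 39.6, 70.3 and 62.7 FPKM in diestrus. Camp was at 60.2, 174 and 58.6 FPKM in estrus and at 24.8, 39.5 and 39.5 FPKM in diestrus. For both genes the phases did not overlap, with the lowest estrus library close above the highest diestrus library for Ngp. Their log2 fold changes were 1.40 ± 0.55 for Ngp and 1.30 ± 0.41 for Camp (SE, limma, unadjusted p = 0.0366 and 0.0149). Mpo, of the azurophil granules, was at 7.87, 37.1 and 6.96 FPKM in estrus and at 3.70, 10.9 and 5.45 FPKM in diestrus. Its phases overlapped, since diestrus replicate 2 was above 2 of the estrus libraries, and its log2 fold change was 0.97 ± 0.61 (SE, limma, unadjusted p = 0.157).

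Retnlg was at 4.73, 14.2 and 8.62 FPKM in estrus and at 1.46, 3.15 and 4.37 FPKM in diestrus, without overlap (log2 fold change 1.31 ± 0.39, SE, limma, unadjusted p = 0.0117). Csf3r was at 26.4, 23.8 and 15.4 FPKM in estrus and at 9.55, 13.9 and 15.7 FPKM in diestrus. Here estrus replicate 1 was the highest, and estrus replicate 3 was just below the highest diestrus library. Il1b had the same order of libraries in estrus, with 13.7, 10.5 and 6.54 FPKM in estrus and 3.99, 6.89 and 6.32 FPKM in diestrus. The log2 fold changes were 0.70 ± 0.23 for Csf3r and 0.71 ± 0.27 for Il1b (SE, limma, unadjusted p = 0.0180 and 0.0297). Csf3r and Il1b had the smallest log2 fold changes, and their highest library was not that of S100a8, S100a9, Ngp, Camp, Mpo and Retnlg. Without estrus replicate 2 the smallest was that of Mpo, at 0.24, followed by Csf3r at 0.62, Il1b at 0.67 and Ngp at 0.71.

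Without estrus replicate 2 the median log2 fold change of the 8 genes in the spleen was 0.75, and 5 of 8 had an unadjusted p under 0.05. Leaving out diestrus replicate 1, the lowest library for every one of the 8 genes, left 4 of 8 with p under 0.05 and a median of 1.04. A single fit of all 90 libraries shares the spread over the tissues. In it, Retnlg and Camp were called in the spleen (limma, adjusted p = 0.0114 and 0.0107). The SE of Retnlg fell from 0.39 to 0.29 in that fit and that of Camp from 0.41 to 0.28. For S100a8 it rose from 0.38 to 0.56 and for S100a9 from 0.43 to 0.80. Retnlg and Camp averaged under 1 FPKM in most tissues, so their shared spread comes largely from low values. The shares of all genes past these limits were not counted for this fit or with a library left out.

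Most other neutrophil genes of the spleen also had higher means in estrus, none of them past the adjustment. Of 7 azurophil granule and promyelocyte genes tested, Mpo among them, all 7 had positive log2 fold changes with a median of 0.97, and 2 had an unadjusted p under 0.05. Elane, the gene of neutrophil elastase, was at 10.9, 46.8 and 9.71 FPKM in estrus and at 4.39, 13.7 and 6.69 FPKM in diestrus, so that estrus replicate 2 was again the highest. The 2 genes past 0.05 were Prtn3, of proteinase 3 (log2 fold change 1.01), and Ms4a3, a gene of granulocyte precursors (0.98). Of 10 specific and gelatinase granule genes tested, Ngp and Camp among them, all 10 were positive with a median of 1.12, and 8 had an unadjusted p under 0.05. Beside Ngp and Camp these were Chil3 (1.56), the lipocalin gene Lcn2 (1.47), the lactoferrin gene Ltf (1.36), the haptoglobin gene Hp (0.89) and the collagenase and gelatinase genes Mmp8 (0.72) and Mmp9 (0.69), all as log2 fold changes. Chil3 was at 18.4, 52.2 and 11.5 FPKM in estrus and at 5.07, 6.91 and 9.58 FPKM in diestrus, without overlap.

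Of 21 genes of circulating neutrophils tested, 5 of the 8 members among them, 20 were positive with a median log2 fold change of 0.53, and 12 had an unadjusted p under 0.05. Cxcr2, the receptor for neutrophil-attracting chemokines, was at 14.7, 15.3 and 13.3 FPKM in estrus and at 11.5, 10.9 and 11.5 FPKM in diestrus. Its difference was small and its phases did not overlap (log2 fold change 0.33 ± 0.07, SE, limma, unadjusted p = 0.00267, adjusted p = 0.930). The others past 0.05, beside S100a8, S100a9, Retnlg, Csf3r and Il1b, were Slfn4 (log2 fold change 0.75), Trem3 (0.74), Hdc (0.68), Lrg1 (0.67), Stfa2l1 (0.52) and Mxd1 (0.26).

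The genes that attract neutrophils or promote their growth, and those of the interleukin 1 pathway, had smaller log2 fold changes in the spleen. Of 5 chemoattractant and growth factor genes tested, 3 had an unadjusted p under 0.05 with higher values in estrus. These were Ppbp (log2 fold change 0.77), a platelet chemokine gene, Cxcr4 (0.50), which retains neutrophils in marrow, and Cxcr2. Cxcl12, the ligand of Cxcr4, was at 94.4 to 185 FPKM in estrus and at 111 to 133 FPKM in diestrus, with overlap. Of 11 interleukin 1 pathway genes tested, Il1b among them, 6 were positive and 5 negative, with a median of 0.06, and Il1b was the one with p under 0.05. The most abundant were Gsdmd (-0.02), Casp1 (-0.09) and Il18 (0.21), none of which passed 0.05. The calprotectin and cathelicidin receptor genes Ager (0.00), Tlr4 (0.03) and Fpr2 (0.36) did not pass it either.

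Markers of other cells differed between the same spleen libraries. Summed over 7 platelet and megakaryocyte genes, the 3 estrus libraries had 158 to 275 FPKM and the diestrus libraries 96.4 to 162 FPKM, and 4 of the 7 had an unadjusted p under 0.05 with higher values in estrus. Estrus replicate 2 had the highest erythroid sum, 60570 FPKM against 20497 to 46581 FPKM in the other spleens, the highest eosinophil sum, 60.4 FPKM against 20.3 to 44.0 FPKM, and the lowest B cell sum, 2212 FPKM against 2525 to 2814 FPKM. Monocyte and macrophage markers had sums of 1795 to 2162 FPKM in estrus and 1665 to 2046 FPKM in diestrus, with 12 of 12 positive and none past 0.05. T cell markers had sums of 550 to 707 FPKM in estrus and 665 to 712 FPKM in diestrus, with 7 of 7 negative and 2 past 0.05. No marker of these lists was at 0 in every spleen library. The part of these cell types in the differences of the 8 genes was not tested.

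In the uterus, 5 of the 8 genes passed the filter on low values, S100a8, S100a9 and Il1b only through estrus replicate 3. S100a9 was at 0.12, 1.36 and 88.6 FPKM in estrus and at 0.12, 0.25 and 0.12 FPKM in diestrus. S100a8 was at 0, 1.21 and 21.2 FPKM in estrus and at 0.34, 0.17 and 0.17 FPKM in diestrus. Both genes were thus near 0 in 4 of the 6 libraries, intermediate in estrus replicate 2 and high in estrus replicate 3. Il1b was at 0.23, 0.70 and 12.9 FPKM in estrus and at 0.32, 0.28 and 0.54 FPKM in diestrus, and Csf3r at 2.88, 5.33 and 16.0 FPKM in estrus and at 4.40, 2.88 and 3.17 FPKM in diestrus, with the same library on top. The phases overlapped for all of these genes.

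Retnlg had another order in the uterus. It was at 5.72, 6.01 and 2.04 FPKM in estrus and at 1.05, 0.22 and 2.87 FPKM in diestrus, so estrus replicates 1 and 2 were the highest, and estrus replicate 3 was below diestrus replicate 3. Its levels in these 2 libraries were within the range of the spleen. Ngp (at most 0.16 FPKM), Camp (at most 0.80 FPKM) and Mpo (at most 0.37 FPKM) stayed low in all 6 uterus libraries and were not tested.

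The log2 fold changes in the uterus were 2.41 ± 1.51 for S100a9, 1.58 ± 1.07 for S100a8, 1.30 ± 0.54 for Retnlg, 1.16 ± 0.90 for Il1b and 0.75 ± 0.53 for Csf3r (SE, limma, adjusted p = 0.897 for each). Only Retnlg of these 5 fell under 0.05 before adjustment (limma, unadjusted p = 0.0473), where 1.45% of the tested genes did with higher and 2.28% with lower values in estrus. None of the 5 had phases that did not overlap, where 3.24% of all tested genes did not with estrus higher. Without estrus replicate 3, S100a8, S100a9 and Il1b no longer passed the filter, Csf3r had a log2 fold change of 0.16, and Retnlg was at 1.69 with phases that did not overlap. Without estrus replicate 1, 4 of the 5 genes did not overlap between the phases, with S100a9 at 3.65. The share of all genes without overlap was not counted for this smaller set, where separation is easier, so the 3.24% does not apply to it. In the single fit of all 90 libraries, S100a8, S100a9, Il1b and Retnlg were called in the uterus (limma, adjusted p = 0.0425, 0.0304, 0.0123 and 0.00108). The share of all genes that this fit called was not counted, so these calls cannot be set against it. For Retnlg the shared spread comes largely from tissues where it averaged under 1 FPKM. The calls of S100a8, S100a9 and Il1b rest on estrus replicate 3: in the same fit without it these genes did not pass the filter, and Retnlg was the one called, at a log2 fold change of 1.69 (limma, adjusted p = 7.04e-05), an alternative added after the values were seen.

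Of the circulating neutrophil genes, several were highest, like S100a9, in uterus estrus replicate 3, and others were not. Slfn4 was at 23.7 FPKM there and at 0.39 to 1.12 FPKM in the other uterus libraries. The decoy receptor gene Il1r2 was at 11.4 FPKM against 0.30 to 1.10 FPKM, and Stfa2l1, a stefin gene of neutrophils, was at 3.38 FPKM and listed at 0 in the 5 others. Cxcr2 was at 14.3 FPKM against 3.28 to 6.12 FPKM. Ly6g, the surface marker used to identify mouse neutrophils, was at 2.43 FPKM there and at 1.87 to 6.47 FPKM in the others, and Trem3 was listed at 0 in all 6. These genes were picked after their values were seen. Over the whole list, 14 of 15 tested genes were positive with a median log2 fold change of 0.95, and 2 had an unadjusted p under 0.05, which were Retnlg and Mxd1 (1.61). Part of this count follows from the filter. Slfn4, Il1r2, S100a8, S100a9 and Il1b were near 1 FPKM or lower outside estrus replicate 3, and passed the filter mainly through it. The most abundant of the list were Hdc (5.72 to 459 FPKM), Lrg1 (4.94 to 70.6 FPKM) and Asprv1, which was at 78.7 FPKM in estrus replicate 3 and at 0.35 to 4.56 FPKM in the others. Hdc was also counted among the mast cell markers. Summed over the list, the estrus libraries had 132, 191 and 548 FPKM and the diestrus libraries 278, 511 and 423 FPKM, so the sums did not follow the count of positive genes. In the stomach, the list summed to 853 and 1494 FPKM in estrus replicates 1 and 3, against 195 to 376 FPKM in the others. Both also had the most squamous epithelium markers of the stomach libraries.

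Squamous epithelium markers were highest in the same uterus library. Krt13 was at 1431 FPKM, Krt5 at 568 FPKM and Sprr1a at 2345 FPKM there, against at most 34.8, 26.2 and 161 FPKM in the other 5 libraries, and no marker of the 14 was at 0 in all uterus libraries. Platelet and megakaryocyte markers summed to 129 FPKM there against 7.52 to 22.1 FPKM, of which Ppbp alone made 104 FPKM. Monocyte and macrophage markers did not follow, with 265 FPKM in that library and 267 to 659 FPKM in the others. The part of squamous epithelium in the high S100a8, S100a9 and Asprv1 of this library was not tested.

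**Figure D4:**
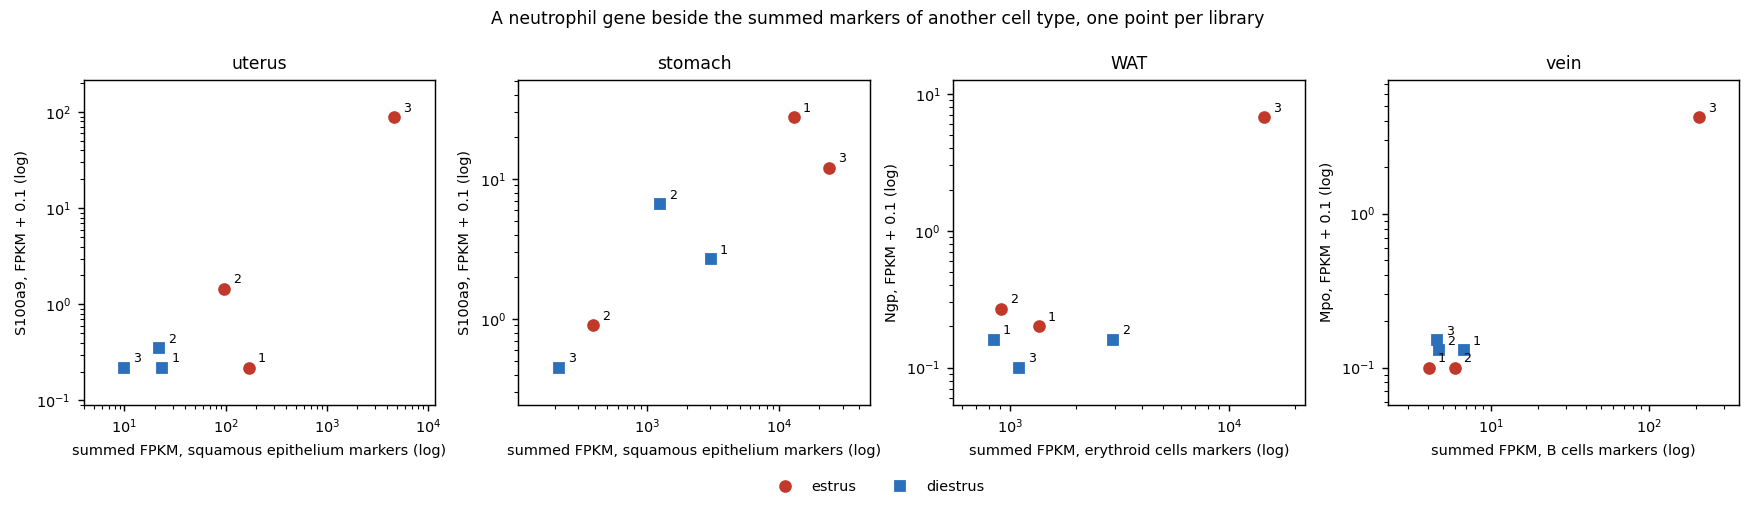
One of the 8 genes (FPKM + 0.1, log axis) against the summed FPKM of the markers of another cell type (log axis) in the 6 numbered libraries of uterus, stomach, WAT and vein. In uterus, WAT and vein a single estrus library, replicate 3, is high on both axes, and in the stomach estrus replicates 1 and 3 are.

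Of the pathway lists in the uterus, the specific and gelatinase granule genes had 6 tested, all positive, with a median log2 fold change of 1.04. The 2 with an unadjusted p under 0.05 were Lcn2 (4.26) and Ltf (3.26), which uterine epithelium makes and secretes under estrogen. Lcn2 was at 3989, 177 and 1245 FPKM in estrus and at 195, 56.2 and 10.2 FPKM in diestrus. Ltf was at 1117, 292 and 1043 FPKM in estrus and at 138, 308 and 7.96 FPKM in diestrus. Their highest library, estrus replicate 1, was among the lowest for S100a8 and S100a9. Hp was at 4.94, 19.6 and 73.0 FPKM in estrus and at 34.0, 7.05 and 23.4 FPKM in diestrus, with overlap. Hp, the collagenase gene Mmp8 (7.28 FPKM against at most 0.08 FPKM) and Olfm4 (16.3 FPKM against 0.07 to 5.90 FPKM) were highest in estrus replicate 3, unlike Ngp and Camp, which were low in every library. Mmp8 passed the filter, and was positive, through that library alone. The azurophil granule genes had none that passed the filter, the highest value being 1.83 FPKM, of Prtn3, and Gfi1 was at most 0.43 FPKM. Of 10 chemoattractant and growth factor genes tested, 8 were positive and none passed 0.05. The most abundant beside Ppbp were Cxcl12 (20.6 to 114 FPKM) and Cxcl15 (0.64 to 58.4 FPKM), which were the 2 with negative log2 fold changes and overlapped between the phases. Of 10 interleukin 1 pathway genes tested, 7 were positive, and Il1a passed 0.05 without adjustment (log2 fold change 3.13 ± 1.08, SE, limma, adjusted p = 0.897). Il1a, the gene of interleukin 1 alpha, was at 41.1, 0.72 and 19.1 FPKM in estrus and at 0.41, 0.26 and 0.23 FPKM in diestrus, without overlap. Casp1, Il1r1 and Pycard, the most abundant of that list, overlapped between the phases. The receptor genes Tlr4 (0.62) and Ager (0.56) did not pass 0.05 either, and Fpr2 was at most 1.21 FPKM.

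In the vein, 3 of the 8 genes passed the filter, and none had an unadjusted p under 0.05, where 3.43% of all tested genes were higher and 8.63% lower in estrus at that limit. S100a9 was at 0.29, 0.71 and 5 FPKM in estrus and at 1.84, 1.26 and 1.34 FPKM in diestrus. S100a8 was at 1.00, 0.80 and 3.03 FPKM in estrus and at 0.99, 0.39 and 0.94 FPKM in diestrus, and Csf3r at 1.49, 1.41 and 3.03 FPKM in estrus and at 1.90, 2.21 and 2.85 FPKM in diestrus. All 3 genes were highest in estrus replicate 3 and overlapped between the phases, where 5.28% of the tested genes were higher and 12.9% lower in estrus without overlap. The log2 fold changes were -0.06 ± 0.54 for S100a9, 0.48 ± 0.34 for S100a8 and -0.19 ± 0.24 for Csf3r (SE, limma, adjusted p = 0.967, 0.519 and 0.712). Without estrus replicate 3, S100a9 was at -0.73 and Csf3r at -0.43, and S100a8 no longer passed the filter.

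That vein library was also the highest for the azurophil and specific granule genes among the members. Mpo was at 4.14 FPKM there and at 0 to 0.05 FPKM in the other 5, and Camp was at 1.32 FPKM there and listed at 0 in the other 5. Ngp was at 0.94 FPKM there and at 0.06 to 0.44 FPKM in the others. Prtn3 was at 7.32 FPKM against 0.81 to 2.90 FPKM, and Elane at 4.95 FPKM against 1.37 to 2.78 FPKM. Retnlg (0.12 to 0.74 FPKM) and Il1b (0.05 to 0.66 FPKM) did not follow. In the same library the B cell marker Cd79a was at 89.2 FPKM against 1.75 to 3.10 FPKM, T cell markers summed to 159 FPKM against 6.61 to 18 FPKM, and the spleen identity genes summed to 139 FPKM against 3.08 to 4.62 FPKM, with 1 of their 5 at 0 in every vein library. The part of lymphoid tissue in these values was not tested.

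Among the neutrophil lists in the vein, 10 genes of circulating neutrophils were tested, 5 of them positive, with a median log2 fold change of -0.01, beside -0.10 over all 13239 genes tested. G0s2, which inhibits fat breakdown and is also a gene of adipocytes, had an unadjusted p under 0.05, with 170 to 262 FPKM in estrus and 69.9 to 141 FPKM in diestrus and no overlap (log2 fold change 1.17 ± 0.28, SE, limma, adjusted p = 0.412). Lrg1, among the most abundant of the list, was at 69.9 to 113 FPKM with overlap. Of the azurophil granule genes 2 were tested, and of the specific granule genes 3, Hp (94.1 to 450 FPKM), Lcn2 (2.44 to 9.28 FPKM) and Mmp9 (0.90 to 1.92 FPKM), none of them past 0.05. Of 4 chemoattractant and growth factor genes tested, none passed it, and the most abundant were Cxcl12 (70.8 to 124 FPKM), Ppbp (18.9 to 64.5 FPKM) and Cxcr4 (15.6 to 35.9 FPKM). Of 6 interleukin 1 pathway genes tested, Il1r1, the signalling receptor of interleukin 1, passed it with lower values in estrus, 4.79 to 6.82 FPKM against 8.30 to 8.93 FPKM in diestrus (log2 fold change -0.48 ± 0.14, SE, limma, adjusted p = 0.412). Gsdmd (7.81 to 15.8 FPKM) and Casp1 (7.09 to 13.8 FPKM) were more abundant and overlapped between the phases. Of the receptor genes Tlr4 (-0.11) and Ager (0.42), none passed 0.05, and Fpr2 was at most 0.53 FPKM.

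Whether the phase difference itself differed between uterus, spleen and vein was tested in 1 limma fit of their 18 libraries. None of the 8 genes passed an adjusted p of 0.05 in any of the 3 contrasts, where 0.00699% of 14296 genes did between uterus and spleen, 0.014% between uterus and vein and 0% between spleen and vein. Only S100a8, S100a9 and Csf3r had passed the filter in each of the 3 tissues. The other genes entered this fit through the tissues where they were high, so that for Ngp, Camp and Mpo a contrast with the uterus sets the spleen or vein value against levels near 0. For S100a9 the difference between uterus and vein was 2.47 ± 1.57 (SE, limma, adjusted p = 0.605), and that between spleen and vein 1.47 ± 1.57 (adjusted p = 1). The phase difference of the 8 genes was thus not shown to differ between these tissues.

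**Figure D5:**
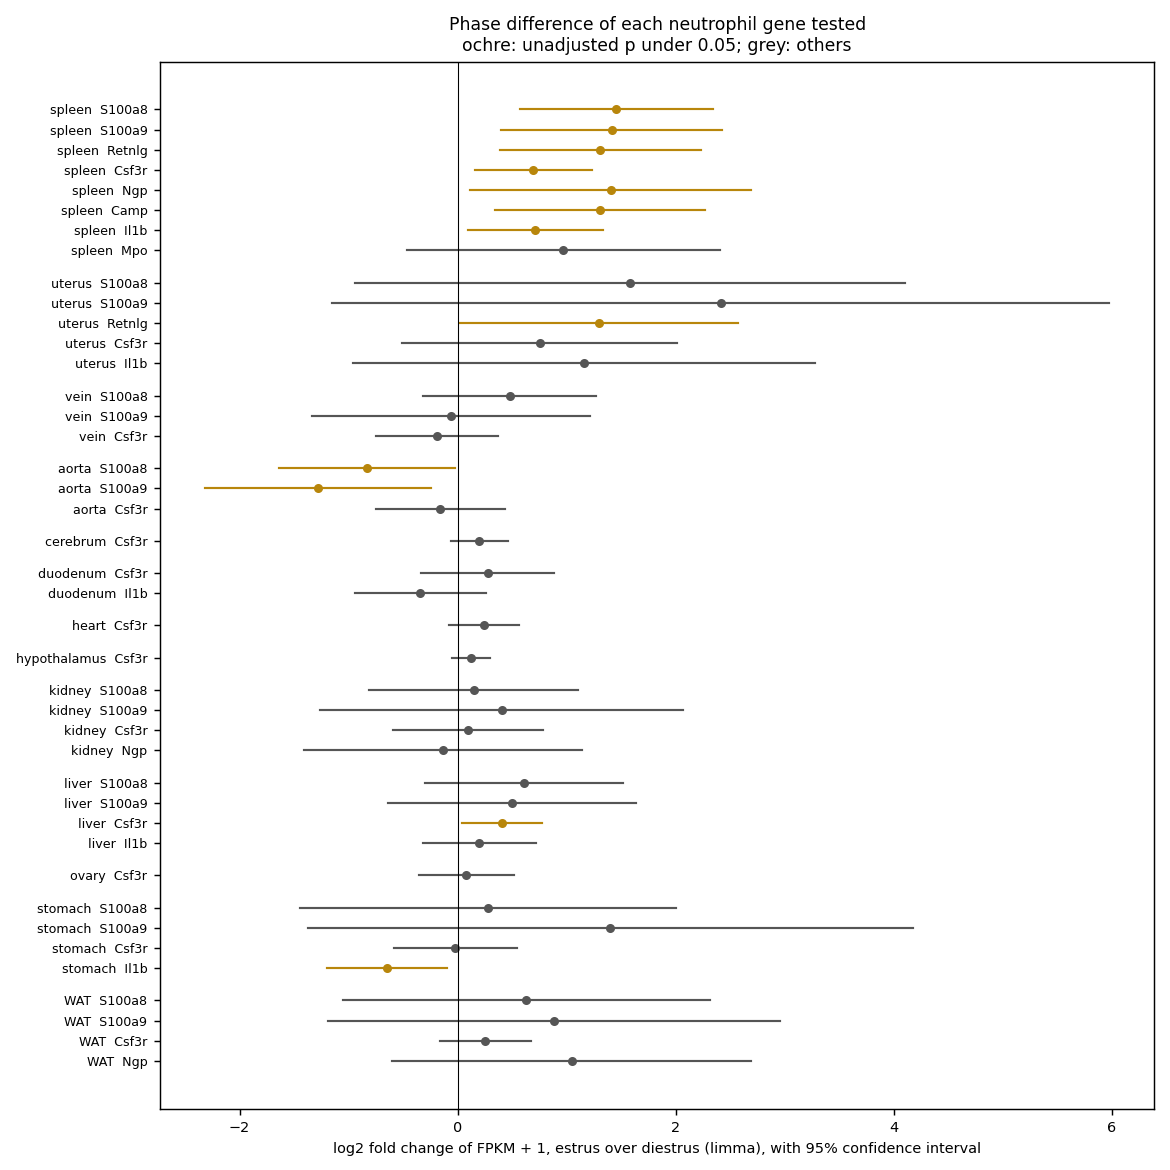
Log2 fold change of FPKM + 1, estrus over diestrus, with its 95% confidence interval (limma) for the 41 pairs of gene and tissue that passed the filter, grouped by tissue. Ochre marks the 12 with an unadjusted p under 0.05, of which 7 are in the spleen and none passed the adjustment.

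In the other tissues, 4 pairs had an unadjusted p under 0.05. In the aorta, S100a9 was at 0.67, 0.83 and 0.86 FPKM in estrus and at 5.49, 1.21 and 4.69 FPKM in diestrus, and S100a8 was at 0, 0.70 and 0.72 FPKM in estrus and at 1.44, 0.97 and 2.43 FPKM in diestrus. Both genes were lower in estrus without overlap, where 9.54% of the tested genes were, and 2.53% had such a p with lower and 0.574% with higher values in estrus. The log2 fold changes were -1.28 ± 0.43 for S100a9 and -0.83 ± 0.33 for S100a8 (SE, limma, unadjusted p = 0.0228 and 0.0455, adjusted p = 0.933 for both). Aorta diestrus replicate 3 also had the highest sums of B cell markers, 46.8 FPKM against 1.41 to 19.2 FPKM, and of T cell markers, 55.6 FPKM against 2.44 to 10.4 FPKM, and estrus replicate 1 had a sum of 9781 FPKM of smooth muscle and endothelial genes against 1101 to 1714 FPKM. Their part in the difference was not tested. Without diestrus replicate 1 the log2 fold change of S100a9 was -0.99, and without diestrus replicate 3 it was -1.09, while S100a8 did not pass the filter without either of them.

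In the liver, Csf3r was at 2.25, 2.75 and 3.82 FPKM in estrus and at 2.21, 1.77 and 1.83 FPKM in diestrus. The lowest estrus library was just above the highest diestrus library, and 4.48% of the tested genes in the liver did not overlap with estrus higher, while 2.50% had an unadjusted p under 0.05 in that direction and 3.09% in the other. The log2 fold change was 0.41 ± 0.16 (SE, limma, unadjusted p = 0.0351, adjusted p = 0.811), and without estrus replicate 3 it was 0.25. S100a8 (3.70 FPKM) and S100a9 (6.90 FPKM) were highest in that same liver library, beside at most 1.00 and 2.09 FPKM in the others. It also had the highest level of Lcn2, 291 FPKM against 12.4 to 33.1 FPKM, a gene that hepatocytes raise in the acute phase response, looked up after the values of S100a8 and S100a9 were seen.

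In the stomach, Il1b was lower in estrus, at 1.07, 1.26 and 1.22 FPKM, than in diestrus, at 1.56, 2.59 and 3.35 FPKM, without overlap, where 12% of the tested genes were lower without overlap and 6.90% had an unadjusted p under 0.05 with lower and 0.481% with higher values. The log2 fold change was -0.65 ± 0.23 (SE, limma, unadjusted p = 0.0285, adjusted p = 0.671). S100a9 did not follow it, with 27.6, 0.80 and 11.9 FPKM in estrus and 2.58, 6.48 and 0.35 FPKM in diestrus. The summed squamous markers were 12864, 388 and 23741 FPKM in the estrus stomachs and 3031, 1246 and 215 FPKM in the diestrus stomachs. In estrus, the libraries with the most S100a9 were those with the most squamous markers. In diestrus, replicate 2 had the most S100a9 and replicate 1 the most squamous markers. The part of squamous epithelium in these values was not tested. Ngp, Camp and Mpo were at most 1.63, 0.62 and 0.02 FPKM in the stomach.

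In WAT, 1 library carried the higher mean of estrus. Estrus replicate 3 had 14.1 FPKM of S100a9, 9.01 FPKM of S100a8, 6.66 FPKM of Ngp and 2.79 FPKM of Camp, while the other 5 libraries had at most 1.19, 1.04, 0.17 and 0.22 FPKM. Il1b (0.15 FPKM), Mpo (0 FPKM) and Retnlg (0.57 FPKM) were not raised to the same extent there. The erythroid markers of that library, at 14380 FPKM, were the highest of the tissue, as stated above, and the part of blood in these values was not tested. S100a8, S100a9 and Ngp passed the filter in WAT through this library alone, and without it only Csf3r was tested, at a log2 fold change of 0.25, as with it. None of the 4 genes tested in WAT had an unadjusted p under 0.05, where 4.83% of the tested genes were higher and 1.15% lower at that limit, and the phases of Ngp, at 0.10, 0.17 and 6.66 FPKM in estrus and 0.06, 0.06 and 0 FPKM in diestrus, were separated between values near 0, where 9.25% of the tested genes did not overlap with estrus higher.

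The kidney, second for Ngp, had 1.66 and 2.01 FPKM in estrus replicates 1 and 2 and 2.27 and 2.63 FPKM in diestrus replicates 1 and 2, against 0.12 and 0 FPKM in both libraries numbered 3. S100a9 had the same split, with 4.30 to 6.45 FPKM in the first 4 and 1.06 and 0.14 FPKM in the last 2. The split ran across the phases, and none of the 4 genes tested in the kidney had an unadjusted p under 0.05, where 1.51% of all genes were higher and 1.36% lower. In duodenum, heart, cerebrum, hypothalamus and ovary, 1 or 2 genes were tested in each, always with Csf3r, and none had such a p. Of all genes tested, 2.29% were higher and 11.2% lower at that limit in duodenum, 4.01% and 2.09% in heart, 1.79% and 1.21% in cerebrum, 7.63% and 5.58% in hypothalamus, and 3.25% and 2.71% in ovary. Csf3r did not overlap between the phases in heart and hypothalamus, with estrus higher by a log2 fold change of 0.24 and 0.12, where 7.91% and 9.96% of the tested genes did not overlap in that direction. In BAT and skeletal muscle no gene of the 8 passed the filter.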

How the data were processed

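RNA of 15 mouse tissues was sequenced on BGISEQ-500, with 3 libraries for each tissue and phase. Reads passed SOAPnuke, were mapped to GRCm38.p5 with Bowtie2 2.2.5 and quantified with RSEM 1.2.8 (versions and build from the submitters' processing notes), and the authors deposited FPKM for 20414 genes. That the values are FPKM was taken from the study's methods and from the values. Counts and totals were not used here. Tissue, phase and number of each library come from the sample labels, where nothing says which tissues share a mouse.

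The 8 genes and the lists of other genes were chosen with earlier results of these data known. Symbols were matched to Entrez identifiers with RefSeq's gene table (GRCm38.p6), and promoters were taken from RefSeq's promoter table of the same build. limma 3.58.1 in R 4.3.3 was run per tissue on log2(FPKM + 1) with an intensity trend and no covariates, on genes averaging 1 FPKM or more in the tissue, and p-values were adjusted by Benjamini-Hochberg over all of them. The study itself tested counts with DEGSeq at the same limits. Reads per library were approximated from 980 short genes with a single transcript, for depth only. The fits were tested on simulated data with 200 changed genes: at a log2 fold change of 1.5, 183 were recovered in the spleen, 170 in the vein and 0 in the uterus, and at 3 these were 196, 196 and 150. Unchanged genes called were 13 in the uterus at 3 and 5 or fewer in the other runs. The changed genes were drawn at random from all genes tested, so the recovery is not that of the 8 genes. The remaining steps ran in Python 3.11.15 (scipy 1.17.1, pandas 2.3.3, numpy 2.4.6, matplotlib 3.10.9).

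Named genes are the 8 genes everywhere, the 3 genes most like each, and from each list the 3 most abundant and those with an unadjusted p under 0.05 in uterus, spleen and vein. Genes named outside this rule were chosen after their values were seen: Slfn4, Il1r2, Stfa2l1, Cxcr2, Ly6g, Trem3, Mmp8 and Olfm4 in the uterus, the squamous and B cell markers, Lcn2 in the liver and Chil3's library values. Il36a, Il36b, Il36g, Trbc2 and Ahsp had no match and were left out of their lists. The values of 1 gene that the rule names are not reported here. Alternatives covered the pseudocount, the filter, the scale, the trend, a replicate block, single libraries left out and 1 fit of all libraries.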

Additional observations from a re-analysis of the deposited data

Results flagged for a closer look

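S100a8 and S100a9 were singled out because all estrus libraries were above all diestrus libraries in the spleen and below all of them in the aorta. The log2 fold changes were 1.46 and -0.83 for S100a8 and 1.41 and -1.28 for S100a9, in spleen and aorta. The difference between the tissues was then tested, by a contrast chosen after these values were seen. In a limma fit of the 12 libraries, the difference of log2 fold changes, spleen minus aorta, was 2.29 ± 0.55 for S100a8 (SE, unadjusted p = 0.00184, adjusted p = 0.805) and 2.69 ± 0.68 for S100a9 (SE, unadjusted p = 0.00247, adjusted p = 0.869). Neither passed the adjustment, and 0% of the 13322 genes tested did. The aorta levels were at most 5.49 FPKM, and the highest aorta values stood in diestrus replicates 1 and 3.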

How the results depend on the processing

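In the 15 tissues no gene of the 8 was called under any of the alternatives, with 2 exceptions in 1 fit of all 90 libraries, which called 2 genes in the spleen and 4 in the uterus, or 1 in the uterus without its estrus replicate 3. That fit shares its spread over tissues, among them those where a gene is near 0, and the share of all genes it called was not counted. In the spleen, 4 to 7 of the 8 genes had an unadjusted p under 0.05 when single libraries were left out, and 5 to 7 did not overlap. Leaving out a library cannot lower that last count. Shares of all genes were not counted for these alternatives, here or in the uterus. The uterus count of 1 gene with p under 0.05 became 0 at a pseudocount of 0.1, with TPM, without the filter and with the replicate block, and 5 in the fit of all libraries. Leaving out single uterus libraries gave 0 to 3 such genes, and 0 to 4 that did not overlap. The median log2 fold change in the vein ran from -0.58 to 0.38 when single libraries were left out. S100a9 in the vein, at -0.06, was at 0.051 with a pseudocount of 5, and ran from -0.73 without estrus replicate 3 to 0.38 without estrus replicate 1, with 0.041 without diestrus replicate 1 and 0.17 without estrus replicate 2. The replicate number as a block gave 8 of 8 spleen genes with p under 0.05 and changed no call. The numbers were not taken as pairs: the deviations of equally numbered libraries from their group means correlated between -0.568 and 0.475, and in 0 of 15 tissues were all 3 over 0.1. With tissues ordered by medians, 6 pairs of neighbouring tissues differed, and without the 4 named libraries 7, against 0 by means of all libraries. Over single libraries 5 of the 24 genes most like the members were the same. The cause of these changes was not tested. Genes averaging under 1 FPKM in a tissue were not tested, and with simulated log2 changes of 1.5 none of 200 genes was recovered in the uterus.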
